A study of Homo sapiens with 6 samples.

Results

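Hyaluronan is a long, unsulphated sugar polymer of the extracellular matrix, and 10 genes that make it, bind it, cross-link it or break it down were described here, out of 37902 genes in the deposited table. The genes are the synthases HAS1, HAS2 and HAS3, the cross-linking genes PTX3, TNFAIP6 and ITIH5, the receptor CD44, the proteoglycan VCAN and the hyaluronidases HYAL1 and HYAL2. They were chosen by name with the KO and WT values of these same libraries already known, PTX3 and ITIH5 for their difference between the lines. The difference of a member between the lines is therefore a description, and no p is given for it.

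Synthases in the plasma membrane extend the polymer and push it out of the cell. Outside, the protein encoded by TNFAIP6 (TSG-6) moves heavy chains of the inter-alpha-inhibitor family onto hyaluronan, and the pentraxin encoded by PTX3 binds such chains and ties polymers together, as is well known from the matrix around the ovulated egg. Cells hold the coat through CD44, versican (VCAN) binds it and carries chondroitin sulphate, and hyaluronidases cut it. In the eye, hyaluronan is abundant in the vitreous and in the matrix between the retinal pigment epithelium (RPE) and the photoreceptors.

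The samples were 2 lines of ARPE-19, an established human line of RPE origin. WT is the parental line, with a wildtype genotype. POLDIP2 KO was made from it with a lentivirus carrying SpCas9 and an sgRNA to the coding sequence of POLDIP2, and transduced cells were selected with antibiotic. The methods describe 1 KO line and no cloning from single cells, so the KO libraries are replicates of 1 transduced population, and the WT cells are not described as having received the virus or the selection. Both lines were labelled as regular maintenance and sampled at day 3. Stranded mRNA libraries from 3 biological replicates of each line were sequenced, which gave 6 libraries of 31532797 to 45795509 recovered reads. The values are normalised counts, that is, reads per gene scaled for the depth of the library, and 1 read was worth about 1 normalised count.

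For POLDIP2 itself, WT libraries held 3919, 4827 and 4798 normalised counts in the order of their replicate numbers, and KO libraries held 1063, 1248 and 1143, in the direction the labels give. Of 14 RPE markers, 12 passed the filter on low counts, a mean of at least 10. KRT8 ranged from 34220 to 48480 over the libraries and MITF from 2955 to 4503, whereas RPE65 was at 0 in all 6 and TYR did not exceed 2.98. LRAT, with log2 fold change -1.27, and SERPINF1, with -0.77, were lower in every KO library than in each WT library (limma adjusted p = 0.731 and 0.822). These were 2 of the 12, beside 10.9% of all genes tested without overlap in either direction. The gaps were narrow, with 28.8 in the highest KO and 29.2 in the lowest WT library for LRAT, and 100.9 and 103 for SERPINF1. For LRAT the reads before scaling overlapped, with 28 in WT replicate 3 and 30 in KO replicate 2. BEST1, TYRP1 and RDH10 had log2 fold changes of 0.78, 0.56 and 0.44, with overlap, and the median of the 12 was -0.12. The summed level of 6 leukocyte markers was 1732 to 2243 in WT and 1882 to 2160 in KO, nearly all of it CD68. Of these markers, CD3E was at 0 in all libraries and PTPRC was at 0 in WT and at 1.23, 3.26 and 6.95 in KO. CSF1R went the other way, with 48.2, 24.1 and 15.7 in WT and 4.92, 14.7 and 11.9 in KO, and ITGAM and CD14 overlapped.

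The stretches upstream of PTX3, TNFAIP6 and ITIH5 are shown because these cross-linking genes differed between the lines in opposite directions, as described below. HYAL1, a hyaluronidase gene that also differed, is not shown. They are RefSeq promoter sequences on GRCh38.p14, up to 250 bases before the annotated start and 5′ to 3′ on the strand of the gene, at chr3:157436600-157436849 on the plus strand for PTX3, chr2:151357342-151357591 on the plus strand for TNFAIP6 and chr10:7666999-7667216 on the minus strand for ITIH5. For ITIH5 the last 32 bases before the start lie in an annotated exon and were left out, which leaves 218. Capitals mark matches to 4 motifs: an NF-kB site, AP-1 (TGANTCA), C/EBP (TTNNGNAA) and the GC box (GGGCGG), each searched on both strands.
PTX3: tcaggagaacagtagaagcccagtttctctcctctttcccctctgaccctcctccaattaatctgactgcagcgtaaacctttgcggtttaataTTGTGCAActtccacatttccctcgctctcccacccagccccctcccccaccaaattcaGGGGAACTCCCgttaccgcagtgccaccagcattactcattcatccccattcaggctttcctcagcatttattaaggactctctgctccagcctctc
TNFAIP6: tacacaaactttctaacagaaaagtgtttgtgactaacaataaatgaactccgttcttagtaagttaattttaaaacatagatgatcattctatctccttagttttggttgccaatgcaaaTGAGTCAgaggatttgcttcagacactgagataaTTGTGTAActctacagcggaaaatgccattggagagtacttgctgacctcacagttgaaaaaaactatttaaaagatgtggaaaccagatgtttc
ITIH5: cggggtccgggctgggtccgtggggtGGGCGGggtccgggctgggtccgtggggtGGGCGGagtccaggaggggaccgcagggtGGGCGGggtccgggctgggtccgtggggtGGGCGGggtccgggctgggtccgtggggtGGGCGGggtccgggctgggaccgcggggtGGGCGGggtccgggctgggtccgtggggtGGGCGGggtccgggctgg

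In the PTX3 stretch, overlapping NF-kB matches span bases 97 to 87 before the start, and a C/EBP match spans bases 156 to 149. The TNFAIP6 stretch held an AP-1 match at bases 129 to 123 and a C/EBP match at bases 95 to 88. The ITIH5 stretch held 7 GC boxes, 29 bases apart from one start to the next, and none of the other motifs. Its GC content was 82.6%, against 51.6% for PTX3, 34.4% for TNFAIP6 and a median of 58.0% over 35116 promoters. Of those promoters, all of 250 bases, 9.96% held the NF-kB motif, 6.57% the AP-1 motif, 33.2% the C/EBP motif and 42.6% a GC box. A match describes letters, and binding was not measured.

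Among the 10 genes, every KO value of PTX3 and TNFAIP6 lay above every WT value, every KO value of ITIH5 and HYAL1 lay below, and the other 6 overlapped between the lines. Over all 14684 genes that passed the filter, 10.9% did not overlap between the lines in one direction or the other. Of the 10, 7 passed this filter, and 1 of those was higher and 2 were lower in KO without overlap. HAS1, HAS2 and TNFAIP6 did not pass it, so the 10.9% is no background for TNFAIP6. The fit across all genes (limma, adjusted p under 0.05 and a fold change over 1.5) called 0.170% of the genes tested and 0 of the 7 members. On recovered reads, edgeR called 0.116% of its genes and 0 members. DESeq2 called 1.27% of the genes that it gave a p, and the members PTX3, ITIH5 and HYAL1. Some genes with a p had no adjusted p and could not be called, so 1.27% understates the share among genes that could. With a replicate block (the replicate number as a factor), limma called 0.204% and the member PTX3, whereas edgeR with the same block called 0 members. Since the members were chosen on this contrast, nothing is read from these counts. In these bulk libraries, fewer cells that express a gene and less RNA per cell cannot be told apart.

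**Figure D1:**
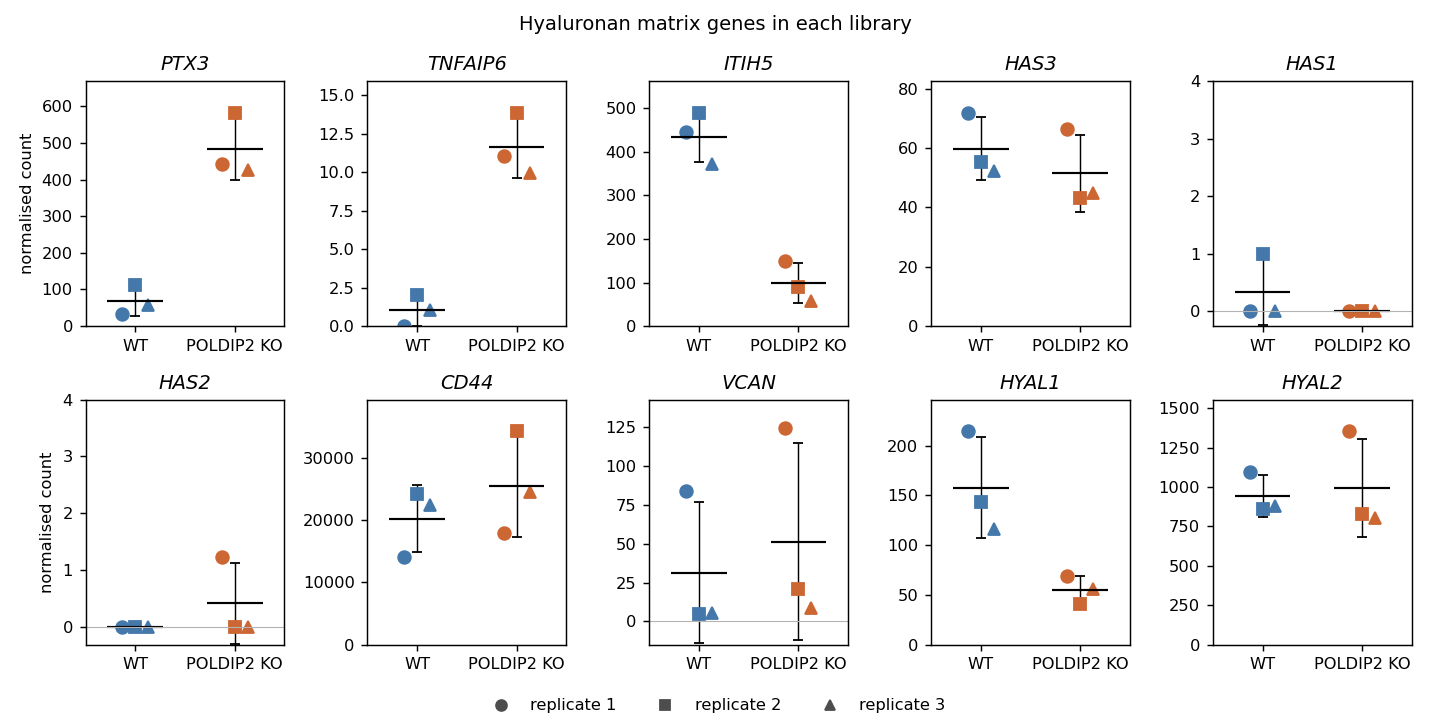
Normalised count of each of the 10 genes (vertical axis, linear, its own scale in each panel) in the 3 WT (blue) and 3 POLDIP2 KO (orange) libraries, with a symbol for each replicate number, a horizontal bar for the mean and error bars for the SD. PTX3 and TNFAIP6 lie higher and ITIH5 and HYAL1 lower in every KO library. Replicate 1 is the highest library of each line for VCAN (84.1 and 124) and the lowest for CD44 (14120 and 17910).

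PTX3, the long pentraxin, a secreted pattern recognition protein that also ties hyaluronan chains together, was about 7 times higher in KO. It lies at chr3:157436850-157443633 on the plus strand (GRCh38, ENSG00000163661). WT replicates 1, 2 and 3 held 34.0, 111 and 58.5 normalised counts and the KO replicates held 442, 582 and 427, from 36, 111 and 56 reads and from 359, 715 and 430 reads. Replicate 2 was the highest library of each line, and the lowest KO library lay far above the highest WT library. The mean was 68.0 ± 39.5 in WT and 484 ± 85.6 in KO (SD, n = 3 each), a ratio of 7.12. The fitted log2 fold change, on log2(normalised count + 1), was 2.96 with a standard error of 0.417 and a 95% interval of 1.98 to 3.95. Paired by replicate number, KO was 13.0, 5.23 and 7.30 times WT. The value ran from 2.55 without WT replicate 1 to 3.39 without WT replicate 2.

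The PTX3 locus lies inside the span of VEPH1, which is annotated on the opposite strand. The libraries keep strand, but the strand setting of the quantification is not given in the sources used here. VEPH1 had a mean of 700 in WT and 539 in KO, a log2 fold change of -0.38 with a 95% interval of -0.69 to -0.07 (limma, adjusted p = 0.593). Its direction was the opposite of that of PTX3.

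TNFAIP6, which encodes the enzyme that transfers heavy chains to hyaluronan, was near the limit of detection in WT and low in KO. It lies at chr2:151357592-151380046 on the plus strand (ENSG00000123610). WT held 0, 2 and 1 reads and KO 9, 17 and 10, which are 0, 2.01 and 1.04 normalised counts in WT and 11.1, 13.8 and 9.93 in KO. Every KO library thus lay above every WT library, at a low level. All WT libraries were at or under the floor of 3 reads per library, so the mean of KO was at least 3.88-fold higher than in WT, with WT set at the floor. Its mean over all libraries was below the filter and the fit did not include it.

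ITIH5, which encodes a heavy chain of the inter-alpha-inhibitor family, was lower in KO. It spans chr10:7559270-7666998 on the minus strand (ENSG00000123243). WT replicates 1, 2 and 3 held 445, 490 and 372 normalised counts and the KO replicates held 149, 90.4 and 57.6, from 356 reads or more in each WT library and 121 or fewer in each KO library. The highest KO library, replicate 1, stayed below the lowest WT library. The mean was 435 ± 59.5 in WT and 98.9 ± 46.2 in KO (SD, n = 3 each), so WT was 4.40 times KO. The log2 fold change was -2.22 with a standard error of 0.347 and a 95% interval of -3.04 to -1.40, and by replicate number KO was 0.335, 0.185 and 0.155 of WT. Leaving out KO replicate 3 gave -1.89 and leaving out KO replicate 1 gave -2.57, the ends of the range over the 6 fits with a library left out.

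HYAL1, an acid-active hyaluronidase of lysosomes and plasma, was also lower in KO. The gene lies at chr3:50299890-50312381 on the minus strand (ENSG00000114378). It had 214, 143.5 and 116 normalised counts in WT and 68.9, 40.7 and 55.6 in KO. The WT libraries differed among themselves by more normalised counts than the KO libraries did, but at a higher mean, and the groups did not overlap. The mean was 158 ± 50.8 in WT and 55.1 ± 14.1 in KO (SD, n = 3 each), WT being 2.87 times KO, with a log2 fold change of -1.49 (SE 0.328, 95% interval -2.26 to -0.71). By replicate number, KO was 0.321, 0.284 and 0.480 of WT.

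HYAL2, a hyaluronidase anchored to the cell surface, lies next to HYAL1 at chr3:50317790-50322782 on the same strand (ENSG00000068001), where its span overlaps TUSC2. It had 1097, 860 and 876 normalised counts in WT and 1352, 827 and 804 in KO. Replicate 1 was the highest library of each line and the groups overlapped. The log2 fold change was 0.04 (SE 0.226), with a 95% interval of -0.49 to 0.58. The data therefore leave room for a difference of that width in either direction.

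HAS3 supplied nearly all synthase reads. It lies at chr16:69105653-69118719 on the plus strand (ENSG00000103044), and it had 71.8, 55.2 and 52.2 normalised counts in WT and 66.4, 43.1 and 44.7 in KO. Each KO library was lower than the WT library of the same number, yet the groups overlapped. The log2 fold change was -0.23 (SE 0.308, 95% interval -0.95 to 0.50). HAS3 made up 98.2% to 100% of the reads of the 3 synthases in each library, from 45 to 76 HAS3 reads. Its span overlaps CHTF8 and DERPC on the opposite strand, and the strand setting of the quantification is not given in the sources used here. Their part in the HAS3 count was not tested.

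HAS1 had 1 read in WT replicate 2 and 0 in the other 5 libraries. HAS2 had 1 read in KO replicate 1 and 0 in the other 5. Both synthases were therefore under the floor in both lines, where 3 reads correspond to 2.44 to 3.69 normalised counts, and a difference between the lines was not detectable at this depth.

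CD44, the main cell surface receptor of hyaluronan, was abundant in every library. It lies at chr11:35138882-35232402 on the plus strand (ENSG00000026508). It had 14120, 24220 and 22450 normalised counts in WT and 17910, 34300 and 24490 in KO. The groups overlapped, and replicate 1 was the lowest library of each line, at 0.605 of the mean of replicates 2 and 3 in WT and 0.609 in KO. The mean was 20260 ± 5395 in WT and 25570 ± 8248 in KO (SD, n = 3 each), and the log2 fold change was 0.32 (SE 0.290, 95% interval -0.36 to 1.01). KO was higher than WT at each replicate number, by 1.27, 1.42 and 1.09 times, and the replicate block gave a 95% interval of 0.09 to 0.56. The value was 0.08 without WT replicate 1, 0.09 without KO replicate 2 and 0.56 without KO replicate 1.

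VCAN, which encodes versican, varied more between replicate numbers than between the lines. It lies at chr5:83471618-83582303 on the plus strand (ENSG00000038427). It had 84.1, 5.02 and 5.22 normalised counts in WT and 124, 21.2 and 8.94 in KO. Replicate 1 was 16.4 times the mean of replicates 2 and 3 in WT and 8.26 times in KO. The log2 fold change was 1.04 with a standard error of 1.31 (95% interval -2.05 to 4.13), and it was 2.30 without WT replicate 1, 0.01 without KO replicate 1, 0.39 without WT replicate 2, 0.42 without WT replicate 3 and 1.84 without KO replicate 3. With the replicate block the interval was -0.15 to 2.23.

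The summed level of 5 fibroblast markers (COL1A1, COL1A2, DCN, LUM and PDGFRB) was likewise highest in replicate 1 of each line, but its order over replicates 2 and 3 of KO was the reverse of that of VCAN. The sum was 6781, 2103 and 2902 normalised counts in WT and 14160, 2057 and 4836 in KO, nearly all of it PDGFRB and COL1A1. COL1A2 had 614 in KO replicate 1 and between 0 and 9.45 in the other libraries. DCN and LUM, which mark fibroblasts, stayed between 0 and 13.5 and between 0 and 9.84. Their part in the VCAN result was not tested.

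Levels of different genes were set side by side per kilobase of transcript (normalised count per kilobase of the MANE Select transcript). In WT the order was CD44 with 3731 ± 993, HYAL2 with 502 ± 70.3, HYAL1 with 77.8 ± 25.0, ITIH5 with 64.8 ± 8.87, PTX3 with 36.1 ± 21.0 and HAS3 with 14.3 ± 2.52 (SD, n = 3 each). VCAN with 2.55 ± 3.69 and TNFAIP6 with 0.715 ± 0.706 were last, before HAS1 and HAS2. The WT libraries of HYAL1 overlapped those of ITIH5, those of ITIH5 overlapped those of PTX3, and those of VCAN overlapped those of TNFAIP6, so these neighbours did not differ beyond their spread.

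In KO, CD44 with 4708 ± 1519 and HYAL2 with 528 ± 165 again led, and PTX3 came next with 257 ± 45.4 normalised counts per kilobase. HYAL1 followed with 27.1 ± 6.94, ITIH5 with 14.7 ± 6.88, HAS3 with 12.3 ± 3.11, TNFAIP6 with 8.17 ± 1.41 and VCAN with 4.17 ± 5.13. Overlapping neighbours were HYAL1 and ITIH5, ITIH5 and HAS3, and TNFAIP6 and VCAN. PTX3 was thus below ITIH5 in the WT means and far above it in KO. With the merged exon length of each gene in place of the transcript, the order over all 6 libraries was the same, while the level of ITIH5 went from 39.8 to 18.3, that of CD44 from 4219 to 2293 and that of HYAL2 from 515 to 219.

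**Figure D2:**
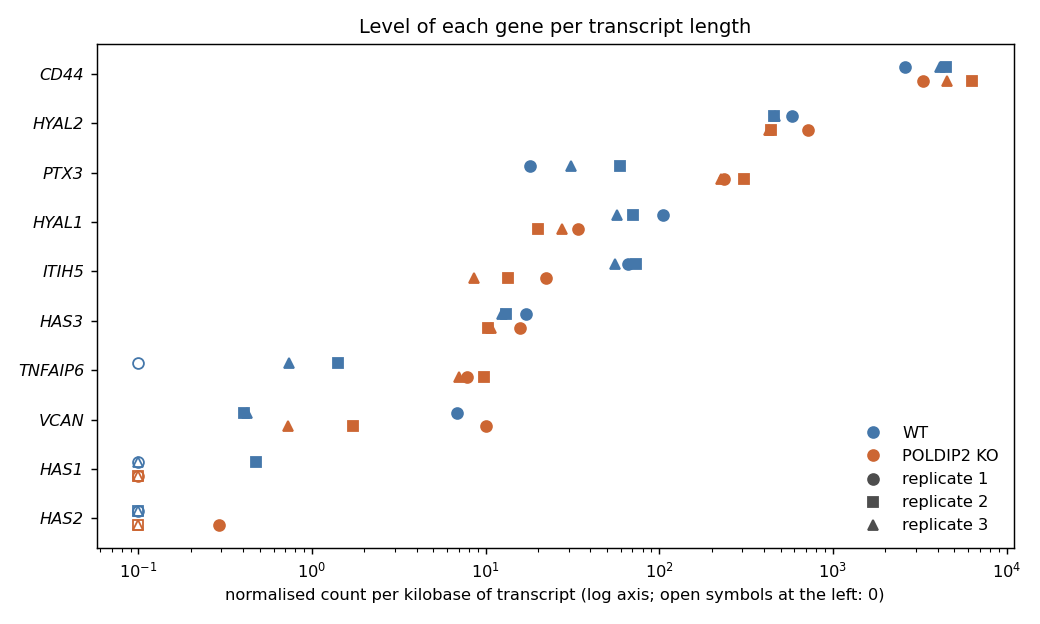
Normalised count per kilobase of transcript (horizontal log axis) of the 10 genes, ordered by their mean over all libraries, with 1 point per library, colour for the line, symbol for the replicate number, and open symbols at the left edge for values of 0. CD44 and HYAL2 lead in both lines, and the points of PTX3 move from a WT mean of 36.1 to a KO mean of 257.

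The question of whether other genes of hyaluronan metabolism differ between the lines was asked of 47 genes that are not members. Of these, 24 passed the filter and 23 did not, 19 of the latter were at the floor in both lines, and 10 had no read in any library. Limma called 0 of the 24 higher and 0 lower, with 4 at an unadjusted p under 0.05, beside 951 of all 14684 genes tested. On recovered reads, edgeR also called 0, and DESeq2 called ADAMTS20. The median log2 fold change of the 24 was 0.07, against 0.00 over all genes tested. Between the lines, 5 of the 24 were higher and 2 lower with no overlap, beside 10.9% of all genes tested in either direction.

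The enzymes that supply the sugar precursors lay close to 0. Among GFPT1, GNPNAT1, PGM3, UAP1, UGP2 and UGDH, the log2 fold changes ran from -0.10 to 0.11. UAP1, which makes UDP-N-acetylglucosamine, had a mean of 6507 ± 1228 in WT and 6201 ± 997 in KO. UGP2, which makes UDP-glucose, had 3534 ± 659 and 3492 ± 274 (SD, n = 3 each). GFPT2, the second form of the first enzyme of the hexosamine pathway, had 2, 2 and 1 reads in WT and 3, 25 and 4 in KO, and its KO libraries lay above its WT libraries at counts near the floor, apart from KO replicate 2.

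The other heavy chain genes ITIH1, ITIH2, ITIH3, ITIH4 and ITIH6, and AMBP, which encodes the light chain bikunin, were all below the filter. ITIH3 had 8, 0 and 0 reads in WT and 33, 1 and 1 in KO, high in replicate 1 of each line. AMBP had 0, 6 and 3 reads in WT and 2, 13 and 25 in KO. ITIH5 was thus the heavy chain gene of this family that passed the filter.

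Among the link proteins, which fasten proteoglycans to hyaluronan, HAPLN3 had 30.9 ± 2.94 in WT and 61.4 ± 16.3 in KO (SD, n = 3 each), a log2 fold change of 0.94 (SE 0.318, limma adjusted p = 0.580). HAPLN4 had 47.4 ± 3.18 and 51.8 ± 7.45. The receptors LAYN (layilin) and HMMR, a hyaluronan-binding protein also of the mitotic spindle, had log2 fold changes of -0.06 and -0.25, both with overlap. NPTXR, a pentraxin of the neuronal group, did not overlap between the lines, with 3911 ± 619 in WT and 5345 ± 491 in KO, and a log2 fold change of 0.46 (SE 0.143, limma adjusted p = 0.510). The other pentraxin genes were at the floor in both lines, with 0 to 2 reads of PTX4 per library and no read of CRP and APCS, which encode the short pentraxins made by the liver.

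Of the other genes of hyaluronan breakdown, GUSB, the lysosomal beta-glucuronidase, had a log2 fold change of 0.03, with a 95% interval of -0.26 to 0.32. CEMIP, which takes part in hyaluronan depolymerisation, varied within the lines, with 46.3, 8.03 and 45.9 normalised counts in WT and 159, 13.8 and 25.8 in KO.

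The ADAMTS proteases listed here, several of which cut versican, spread in both directions. ADAMTS20 had 32.1, 20.1 and 31.3 normalised counts in WT and 6.15, 5.70 and 1.99 in KO. Its log2 fold change was -2.43 (SE 0.568, 95% interval -3.78 to -1.09), with an adjusted p of 0.267 in limma, 0.159 to 0.291 over the limma settings with all libraries, and 0.0445 in DESeq2. ADAMTS1 had 3146 ± 164 in WT and 1333 ± 773 in KO without overlap (log2 fold change -1.46, SE 0.466, limma adjusted p = 0.531), and KO replicate 3, with 507, was the lowest library. ADAMTS4 and ADAMTS9 were higher in KO without overlap, with log2 fold changes of 0.42 and 0.33 (limma adjusted p = 0.9998 and 0.854). For ADAMTS4 the gap was narrow, with 22.1 normalised counts in the highest WT and 22.8 in the lowest KO library. Its reads before scaling overlapped, with 22 in WT replicate 2 and 20 in KO replicate 1. ADAMTS5 had 9112, 2863 and 1687 in WT and 6195, 1076 and 872 in KO, with replicate 1 the highest library of each line, as for VCAN.

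**Figure D3:**
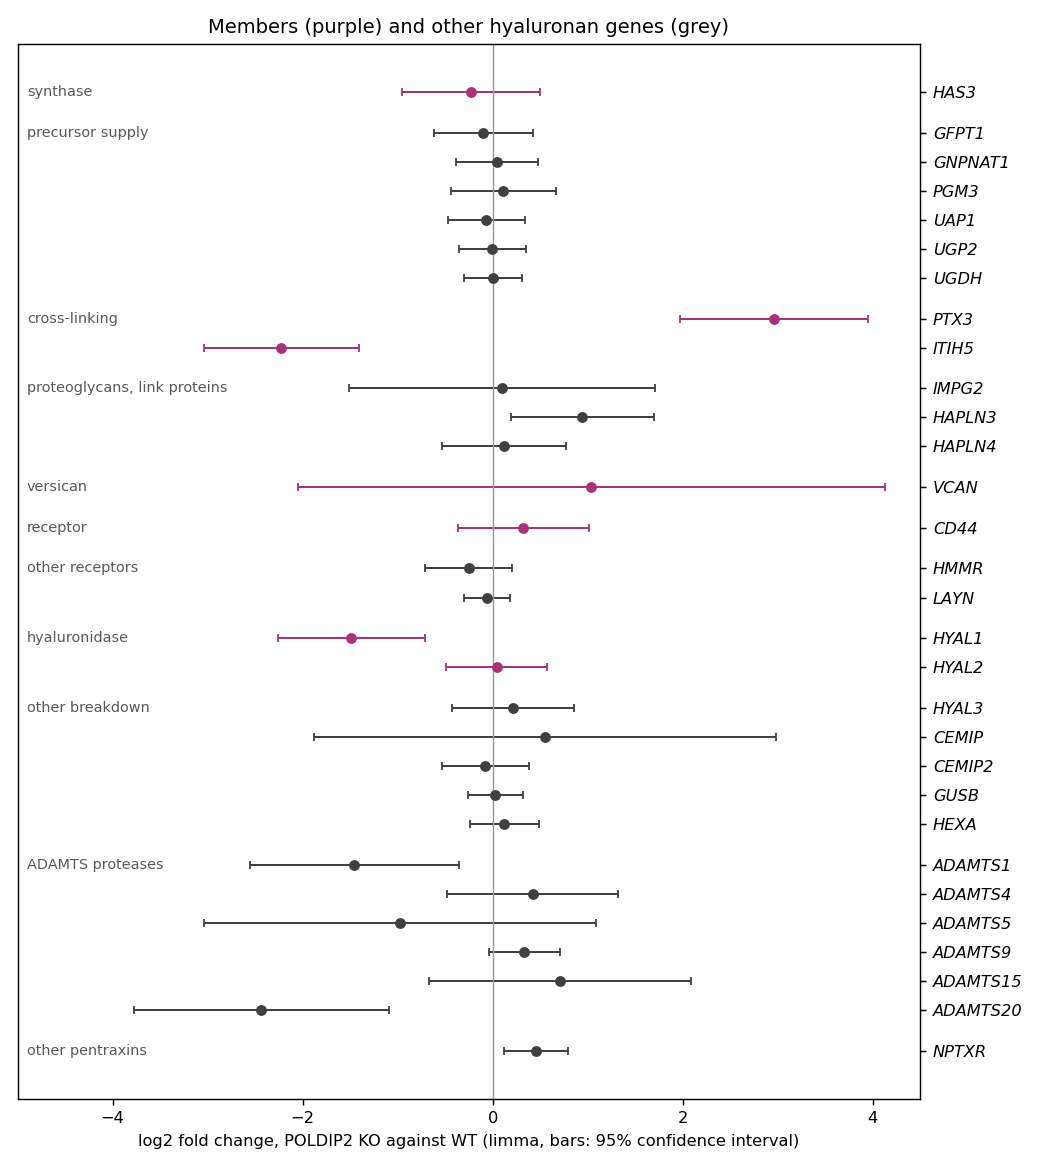
Log2 fold change of POLDIP2 KO against WT (horizontal axis, linear) from limma for the members (purple) and other hyaluronan genes (grey), 1 gene that passed the filter being left out, grouped by role, with bars for the 95% confidence interval. The interval is 1.98 to 3.95 for PTX3, -3.04 to -1.40 for ITIH5 and -2.26 to -0.71 for HYAL1. The members were chosen with this contrast known, so their intervals are a description and not a test. The log2 fold changes of the 6 precursor genes lie between -0.10 and 0.11.

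Around HYAL1, 15 other tested genes that are not members had some part within 200 kb. Their log2 fold changes ran from -2.27 to 1.31 with a median of 0.00, and the lowest adjusted p was 0.186 (limma). That gene was SLC38A3, an amino acid transporter, with a mean of 45.2 in WT and 8.80 in KO and no overlap. HYAL3, another gene of the hyaluronidase cluster, starts 485 bases beyond the 3′ end of HYAL1 on the same strand and had a log2 fold change of 0.21 (95% interval -0.43 to 0.85), against -1.49 for HYAL1 and 0.04 for HYAL2. NAA80, 474 bases away and overlapping HYAL3 on the same strand, had -0.11. The interval of NAA80, -0.55 to 0.33, also spanned 0.

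Around PTX3, the tested genes within 200 kb were VEPH1 and SLC66A1L, with log2 fold changes of -0.38 and -0.42, both lower in KO without overlap (limma adjusted p = 0.593 and 0.9998). Around ITIH5, the genes SFMBT2, KIN, ATP5F1C and TAF3 ran from -0.20 to 0.25. Around TNFAIP6, RBM43, NMI and RIF1 ran from -0.33 to 0.14, and NEB, which encodes nebulin, had 40.7 in WT and 5.16 in KO, a log2 fold change of -2.27 (95% interval -4.44 to -0.09, limma adjusted p = 0.746).

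**Figure D4:**
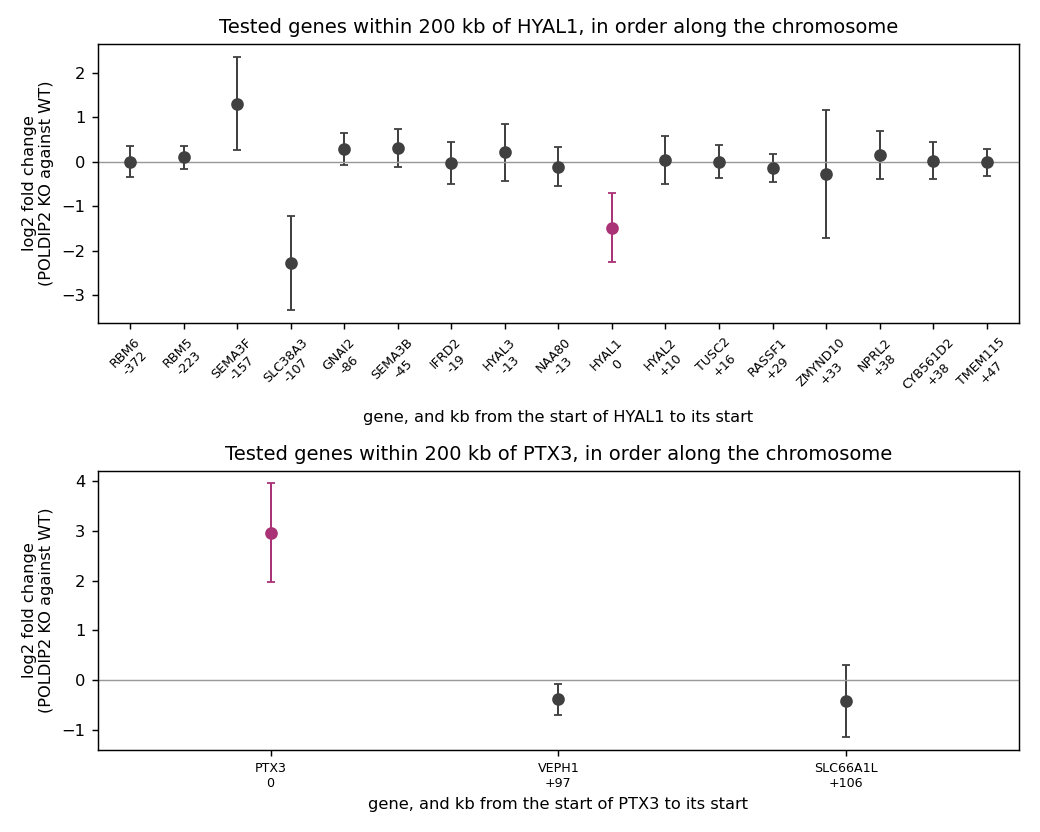
Log2 fold change of POLDIP2 KO against WT (vertical axis, linear) of the tested genes within 200 kb of HYAL1 (upper panel) and PTX3 (lower panel), in order along the chromosome, with the distance between gene starts in kb under each name and bars for the 95% confidence interval. HYAL1 (-1.49) stands below HYAL3 (0.21), NAA80 (-0.11) and HYAL2 (0.04), and PTX3 (2.96) stands above VEPH1 (-0.38).

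The genes most like PTX3 were found by the Pearson correlation of log2(normalised count + 1) over the 6 libraries, which share 2 lines, so that a large part of each value is the difference between the lines. They were CYB561 (r = 0.997), ENSG00000280571 (r = 0.995), IGFBP1 (r = 0.994), CARD19 (r = 0.992) and MANEAL (r = 0.991). IGFBP1, which encodes a secreted binder of insulin-like growth factors, went from a mean of 25.7 in WT to 52.5 in KO. The genes most like ITIH5 were XKR4 (r = 0.990), FBLL1 (r = 0.990), WWC3 (r = 0.989), TRIM7 (r = 0.986) and KIAA0040 (r = 0.983), the last with a mean of 123 in WT and 25.6 in KO. Among the members, HYAL1 was most like ITIH5 (r = 0.909), and PTX3 ran opposite to HYAL1 (r = -0.942) and to ITIH5 (r = -0.874). These values describe 6 points and carry no test.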

How the data were processed

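RNA of 3 WT and 3 POLDIP2 KO libraries was analysed. The authors quantified reads with Salmon 1.8, summed them to genes on GRCh38 and divided them by DESeq2 1.34.0 size factors, and the deposited signal is this normalised count. The annotation release is not given in the sources used here. Symbols and positions came from GENCODE release 44 and promoters from RefSeq (GRCh38.p14).

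Members, gene lists and tests were chosen with earlier results of these data known. Named genes were the members, the listed genes past the threshold or without overlap between the lines, the 2 most abundant genes of each role, some others singled out after their values were seen, and the 5 genes most like PTX3 and ITIH5. Neighbours and motifs were likewise chosen after the data were seen.

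Genes averaging 10 or more normalised counts were fitted with limma 3.58.1 (R 4.3.3, lmFit, eBayes with trend) on log2(normalised count + 1), with Benjamini-Hochberg adjustment over 14684 genes. The labels call the replicates biological and say no more of their source, so p values measure the spread between these samples. An exact permutation test of 3 against 3 cannot go below a two-sided p of 0.1. Dividing each library by its step of 1 read recovered whole reads for 100% of values (tolerance 0.001). In WT replicate 2 and KO replicate 3 the step is close to 1 (1.0034 and 0.993). The largest distance from a whole number there was 8.5e-05 and 0.000221. The recovered reads were tested with DESeq2 1.42.0 and with the edgeR 4.0.16 quasi-likelihood test, alternatives chosen after the data were seen. Depth was 31532797 to 45795509 reads. Floors cover counting error only.

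Deviations from the line means correlated at 0.315, 0.137 and 0.129 between same-numbered libraries and at -0.259 to 0.147 between others, so the number was used as a block in an alternative. WT replicate 3 correlated best with KO replicate 2. The other alternatives were eBayes without trend, libraries recentred or quantile normalised, a minimum mean of 50 or none, pseudocounts of 0.5 and 5, merged exon lengths and fits without each library. Values of 1 listed gene, which enters the counts, are not reported here.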

Additional observations from a re-analysis of the deposited data

How the results depend on the processing

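Over all genes tested, limma called 25. A mean of at least 50 gave 16, DESeq2 on recovered reads gave 270, and edgeR with the replicate block gave 5. Leaving out 1 library gave 0 to 12: 10 without WT replicate 1, 12 without KO replicate 1, and 0 without WT replicate 2, WT replicate 3, KO replicate 2 or KO replicate 3 (865, 903, 870 and 691 genes at an unadjusted p under 0.05). A fit with a library left out has fewer samples. Of the members, limma called 0, limma with the replicate block 1 (PTX3), edgeR with the replicate block 0 and DESeq2 3 (PTX3, ITIH5 and HYAL1). Of the other hyaluronan genes, limma called 0, with the replicate block also 0, and DESeq2 1 (ADAMTS20). The cause of these differences was not tested. The fold changes of PTX3, ITIH5 and HYAL1 kept their direction under all 17 alternatives run. As these genes did not overlap between the lines, leaving out a library or changing the pseudocount could not reverse them. Nothing is therefore read from the unchanged direction. Depth limits HAS1 and HAS2, at the floor in both lines, and TNFAIP6, at the floor in WT and given as a bound.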
